A study of Mus musculus with 36 samples.

Results

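The genes described here are 10 mouse genes known to respond to glucocorticoid hormones or to metals: Fkbp5, Tsc22d3, Sgk1, Ddit4, Plin4, Cdkn1a, Zbtb16, the receptor gene Nr3c1, and the metallothionein genes Mt1 and Mt2. They were chosen by symbol from the 12394 genes with a symbol on the array, with earlier results of these data known. Each gene was read from the probe with the highest mean intensity. A probe was listed for 8 of the 10, and Zbtb16 and Nr3c1 were not analysed here. Of the 8 genes, 7 were measured in brain, heart, kidney and liver, and Tsc22d3 was measured in heart. Plin4 was listed under its older symbol S3-12.

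The arrays compared FVB female transgenic mice aged 6 to 8 weeks, imaged for luciferase activity, in 3 groups: mock mice with no treatment, mice given lipopolysaccharide (LPS, the inflammatory outer membrane component of Gram-negative bacteria) into the peritoneal cavity at 4 mg/kg, and mice given the same LPS and then genipin, an iridoid from gardenia fruit, 10 min later. Organs were collected after 4 h, and each had 3 arrays per group, 36 in all. All groups carried the transgene, whose promoter no label names. The study used 25 mice in 5 groups of 5, and its genipin doses were 1, 10 and 100 mg/kg. No label says which dose the arrays represent, or that arrays within a group are different animals. The p-values here therefore cover array-to-array spread alone, which may be technical.

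Glucocorticoids are released by the adrenal gland during inflammation and stress. They bind the glucocorticoid receptor, a transcription factor held in the cytoplasm with heat-shock chaperones, which then enters the nucleus and raises genes such as Fkbp5, Tsc22d3 and Sgk1, some of which feed back on the receptor or restrain inflammation. Metallothioneins are small cysteine-rich proteins that bind zinc and copper. Their genes respond to metal through the factor MTF1, and also to glucocorticoids and to cytokines, and both are known as acute-phase genes of the liver.

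The metallothionein promoters are shown because these genes stand where both inputs meet. The 300-base windows around each RefSeq transcription start (GRCm38.p6, 250 bases before to 50 after, plus strand) lie at chr8:94178839-94179138 for Mt1 and chr8:94172368-94172667 for Mt2, and capitals mark the motif matches.
Mt1: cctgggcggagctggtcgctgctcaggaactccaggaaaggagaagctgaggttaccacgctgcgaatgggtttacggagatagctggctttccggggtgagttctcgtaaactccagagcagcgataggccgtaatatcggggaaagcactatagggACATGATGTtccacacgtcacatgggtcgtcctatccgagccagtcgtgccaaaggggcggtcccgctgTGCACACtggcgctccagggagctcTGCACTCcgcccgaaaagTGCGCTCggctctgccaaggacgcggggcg
Mt2: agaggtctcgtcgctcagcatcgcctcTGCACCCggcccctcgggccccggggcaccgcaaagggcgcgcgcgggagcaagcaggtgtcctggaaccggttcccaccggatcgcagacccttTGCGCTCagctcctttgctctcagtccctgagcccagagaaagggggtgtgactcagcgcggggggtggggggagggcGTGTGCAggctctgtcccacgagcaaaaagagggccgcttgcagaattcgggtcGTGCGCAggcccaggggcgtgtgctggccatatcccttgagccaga
The metal response element core was searched as TGCACNC or TGCGCNC and the glucocorticoid response element core as ACANNNTGT, on both strands. The Mt1 window held 3 metal cores and 1 glucocorticoid core, ACATGATGT, whose first base lies at -92 from the start. The Mt2 window held 4 metal cores and 0 glucocorticoid cores, and no match overlapped another in either window. Of 32851 promoter windows searched, 25.7% held a metal core, 1.97% held 3 or more and 0.517% held 4 or more, while 6.85% held a glucocorticoid core. Among the other genes, 2 of the 6 Sgk1 windows held a glucocorticoid core, and the windows of Fkbp5, Tsc22d3, Plin4, Cdkn1a and Ddit4 held 0. These matches are descriptions of the letters, not of binding.

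Intensities are the authors' linear values, which appear normalized within each tissue, so levels are not compared between tissues or between probes. Correlations between arrays of 1 group were 0.985 to 0.998, and a gene's SD within a group had a median of 0.0911 to 0.128 on the log2 scale, depending on the organ. The defining transcripts of each organ were present: 6 of 6 cardiomyocyte markers were measured in heart, 5 of 5 proximal tubule markers in kidney, 5 of 6 hepatocyte markers in liver and 4 of 5 neuron markers in brain. Groups also differed in transcripts of neighbouring tissue. In brain, 4 skeletal muscle transcripts summed to 112506 to 118985 in mock, 3416 to 3680 with LPS and 3749 to 4086 with LPS+genipin. In brain, the transthyretin transcript Ttr, abundant in choroid plexus, lay between 2404 and 3392 with LPS and at or above 64899 on every other brain array. In heart, the atrial light chain Myl7 lay between 1219 and 1414 in mock, between 65485 and 65488 with LPS and between 679 and 773 with LPS+genipin. In kidney, the fast muscle light chain Mylpf lay between 418 and 442 with LPS and between 2677 and 2853 with LPS+genipin, albumin, Alb, between 1774 and 2124 and then between 5082 and 6126, and Ttr between 734 and 776 and then between 1852 and 2131. Other hepatocyte transcripts in kidney were split: with genipin against LPS, Apoa1 rose 0.61, Fgb fell by 3.07 and Cyp2e1 did not pass (0.18, adjusted p = 0.207). All of these hepatocyte transcripts had already risen in kidney with LPS over mock. The rises were 5.92 for Fgb, 1.17 for Alb, 1.10 for Cyp2e1, at least 1.02 for Apoa1 and 0.55 for Ttr. The part of these differences in the results below was not tested. In whole tissue, fewer cells of a type and less RNA per cell cannot be told apart.

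Below, each comparison is a log2 difference between means of 3 arrays ± SE, with a limma p-value adjusted by Benjamini-Hochberg over all genes of the tissue, and a gene passed when that p was under 0.05. A value at or above 60000 was treated as at the scanner's limit, and the highest value was 65491.9.

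LPS raised most of the readable genes in every organ, and with genipin added nearly all of them stayed above mock. With LPS against mock, 5 of 5 readable genes rose in brain, 5 of 7 in heart, 5 of 5 in kidney and 5 of 5 in liver, where 16.7%, 18.5%, 25.8% and 29.8% of all genes rose, 17.9%, 29.5%, 40.0% and 37.8% fell, and 34.6%, 48.0%, 65.7% and 67.7% passed in either direction. Their median differences were 1.32, 1.03, 1.07 and 0.97, against -0.009, -0.069, -0.097 and -0.046 for all genes. The heart median of 1.03 is the value of Mt2, a lower bound because Mt2 reached the scanner's limit with LPS. Heart alone also counts Tsc22d3, a dim gene. With LPS+genipin against mock, 5 of 5 rose in brain, 7 of 7 in heart and 5 of 5 in kidney, and in liver 4 rose and 1 fell. All genes rose in that comparison in 9.13%, 7.73%, 20.7% and 29.0% of cases and fell in 5.72%, 12.5%, 24.9% and 33.0%, together 14.9%, 20.3%, 45.6% and 62.1%. These genes and the lists below were chosen with earlier results of these data known. Counts set beside the shares of all genes are therefore descriptions, not independent support. Both comparisons with mock use the same mock arrays. LPS against mock and LPS+genipin against LPS likewise share the LPS arrays, so a deviation of those arrays enters both with opposite signs.

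Set directly against LPS alone, genipin moved the genes in both directions. In brain 1 of 5 rose and 1 fell, in heart 2 of 6 rose and 2 fell, in kidney 0 of 5 rose and 2 fell, and in liver 2 of 5 rose and 3 fell. Over all genes 30.7%, 42.6%, 56.0% and 55.1% passed in either direction, beside 2 of 5, 4 of 6, 2 of 5 and 5 of 5 of these genes. The members' share is thus near the background in brain and not above it in kidney. Rises took 16.7%, 22.4%, 32.9% and 30.2% of all genes and falls 14.1%, 20.2%, 23.0% and 24.9%. Median differences of these genes were 0.18, 0.09, -0.11 and -0.28. Over the 5 genes readable in all 4 tissues, which make 20 gene and tissue pairs, 19 pairs rose with LPS, 19 were above mock with LPS+genipin, and against LPS alone 4 rose, 8 fell and 8 did not pass.

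**Figure D1:**
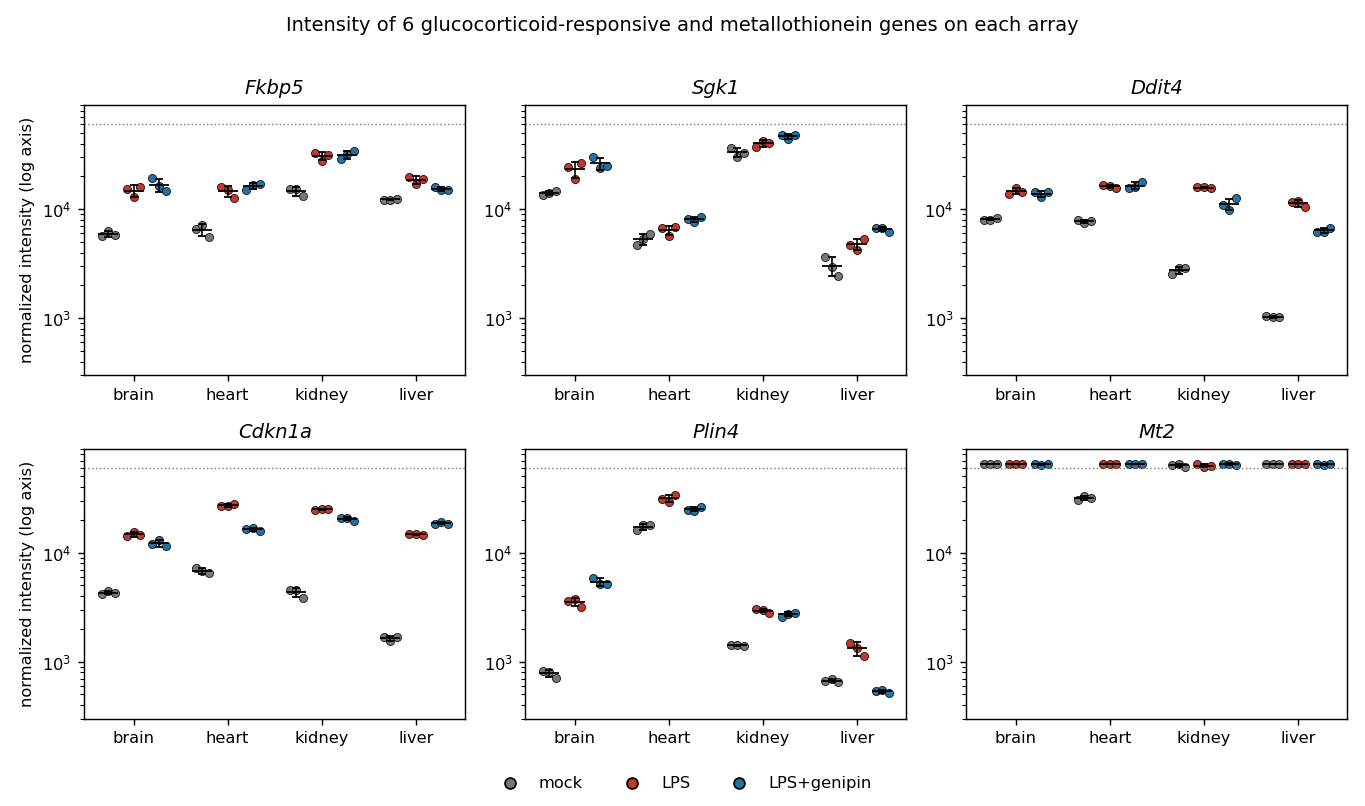
Normalized intensity (log axis) of 6 genes on each array of brain, heart, kidney and liver, by group. Points are arrays, bars are mean ± SD of 3 arrays, and the dotted line is 60000, treated as the scanner's limit. LPS and LPS+genipin points lie above the mock points for Fkbp5, Ddit4 and Cdkn1a in every tissue, while for Plin4 in liver the LPS+genipin points, 517 to 550, lie below mock.

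Fkbp5 (chromosome 17, 28398753 to 28486149, GRCm38.p6), a co-chaperone that lowers the glucocorticoid receptor's affinity for hormone and is itself induced by it, rose with LPS in all 4 organs. In brain its intensities were 5631, 6334 and 5742 in mock, 15441, 12845 and 16127 with LPS, and 19143, 16305 and 14748 with LPS+genipin. In heart they were 6597, 7152 and 5552, then 15971, 14950 and 12774, then 15161, 16624 and 17080. Every treated array exceeded every mock array in both organs, and the 2 treated groups overlapped. In kidney the values were 15468, 15379 and 13112 in mock, 32769, 27849 and 31700 with LPS, and 28918, 32217 and 34072 with LPS+genipin. In liver they were 12191, 12260 and 12413, then 19902, 17011 and 18961, then 16084, 14925 and 14910. Kidney treated groups overlapped too, whereas in liver all LPS+genipin arrays lay between mock and LPS.

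The Fkbp5 rise with LPS was 2.5-fold in brain (1.32 ± 0.12, adjusted p = 0.000141), 2.27-fold in heart (1.18 ± 0.12, adjusted p = 8.54e-05), 2.10-fold in kidney (1.07 ± 0.09, adjusted p = 3.01e-05) and 1.51-fold in liver (0.60 ± 0.06, adjusted p = 8.77e-05). Between LPS+genipin and LPS it did not pass in brain (0.18, 95% interval -0.10 to 0.45), heart (0.17, -0.10 to 0.43) or kidney (0.04, -0.17 to 0.26). These intervals leave room for a modest change either way. In liver genipin lowered Fkbp5 1.21-fold (-0.28 ± 0.06, adjusted p = 0.00759), and it stayed 1.24-fold above mock (adjusted p = 0.00331).

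Tsc22d3 (chromosome X, 140539528 to 140600522), which encodes the glucocorticoid-induced leucine zipper GILZ, an inhibitor of inflammatory transcription, was close to the intensity floor of 263. Its heart intensities were 307, 318 and 282 in mock, 219, 220 and 292 with LPS, and 460, 407 and 365 with LPS+genipin. The LPS+genipin arrays were above all others, and mock and LPS overlapped. LPS against mock did not pass (-0.15, adjusted p = 0.227). With genipin the difference from LPS passed (0.59 ± 0.10, adjusted p = 0.00171). Its size has no firm value, because 2 of the 3 LPS arrays lay below the floor and were set to it: it was 0.27 with the floor at 338 and 0.76 with no floor, and the adjusted p was 0.00137 to 0.0245 over the alternatives. Against mock the difference was 0.44 ± 0.10 (adjusted p = 0.0155), and 0.27 with the floor at 338. The call against mock was lost without mock array 3 or without LPS+genipin array 2 (adjusted p = 0.0503 each).

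Sgk1 (chromosome 10, 21882184 to 21999903), a kinase that raises sodium channel activity in the distal nephron and is induced by glucocorticoids and mineralocorticoids, rose with LPS in 3 organs and with LPS+genipin in all 4. In brain its intensities were 13384, 14011 and 14610 in mock, 24509, 18795 and 26502 with LPS, and 30255, 23802 and 24838 with LPS+genipin. In liver they were 3647, 2933 and 2458, then 4739, 4218 and 5312, then 6727, 6740 and 6198. In liver the 3 groups did not overlap, with LPS+genipin highest. In heart they were 4654, 5372 and 5946 in mock, 6726, 5704 and 6864 with LPS, and 8106, 7648 and 8554 with LPS+genipin. In kidney they were 36609, 30358 and 32903, then 37245, 42594 and 40800, then 47690, 44107 and 47878. Every LPS+genipin array of heart and kidney was above every LPS array.

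Sgk1 rose with LPS 1.65-fold in brain (0.72 ± 0.14, adjusted p = 0.00576), 1.59-fold in liver (0.67 ± 0.14, adjusted p = 0.0038) and 1.21-fold in kidney (0.27 ± 0.08, adjusted p = 0.0165), and did not pass in heart (0.28 ± 0.11, adjusted p = 0.0677). With genipin against mock it was 1.87-fold higher in brain, 1.53-fold in heart, 1.40-fold in kidney and 2.20-fold in liver (adjusted p = 0.00412, 0.00638, 0.00176 and 0.000237). Against LPS alone, genipin gave a 1.38-fold rise in liver (adjusted p = 0.0254) and a 1.26-fold rise in heart (adjusted p = 0.0368), while kidney (0.21, 0.03 to 0.40, adjusted p = 0.052) and brain (0.18, -0.14 to 0.50) did not pass. These calls were fragile. The heart rise over LPS was lost on leaving out mock array 2 or any 1 of the 6 arrays compared except LPS array 3 (adjusted p up to 0.109), and the liver rise without LPS array 1 or 2 or LPS+genipin array 1 or 2 (up to 0.081). The kidney rise with LPS was lost without mock array 2 or LPS array 2 (adjusted p = 0.0501 and 0.0577) and with all 36 arrays in 1 fit (0.0638). The heart rise with LPS passed without mock array 3 or LPS array 2 (adjusted p = 0.0347 and 0.032), and the kidney difference from LPS without mock array 1 or 2 or LPS array 2 (0.0299 to 0.0489). That kidney difference also passed with no floor, without dim genes, with an intensity trend and with only the 6 arrays compared (0.0375 to 0.0494). A second Sgk1 probe, near the floor at 203 to 595 in brain and heart, did not pass with LPS in brain (0.03, adjusted p = 0.821).

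**Figure D2:**
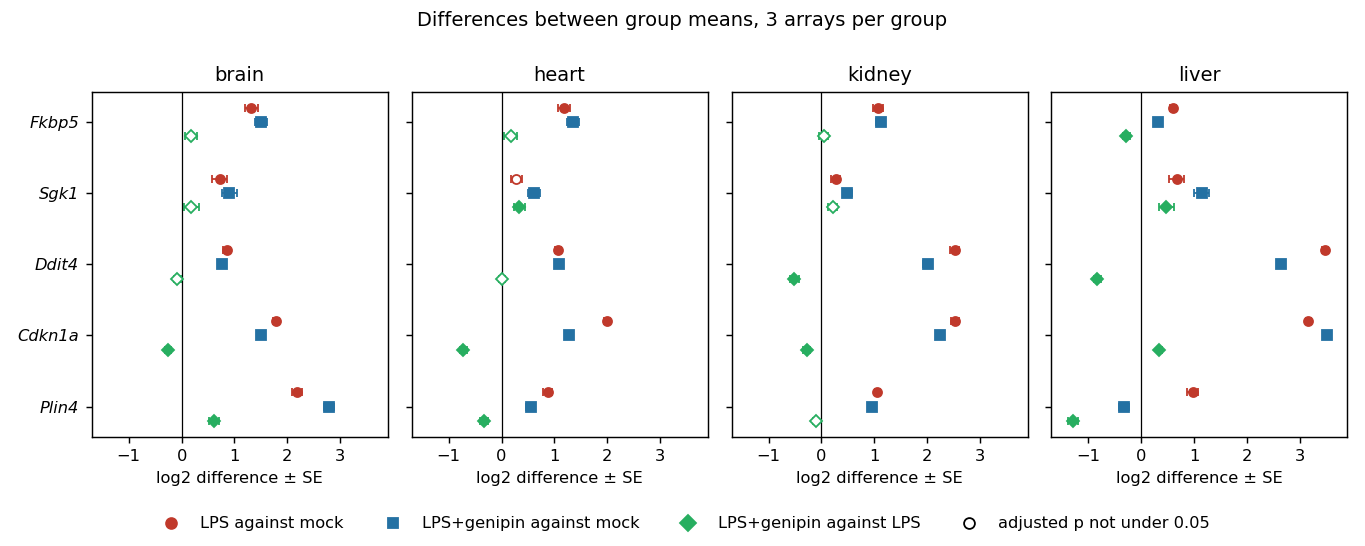
Log2 difference ± SE (horizontal axis) of 5 genes in each tissue for 3 comparisons, 3 arrays per group; open symbols did not pass. The LPS and LPS+genipin differences from mock lie right of 0 except Plin4 with LPS+genipin in liver, at -0.33, and the differences between LPS+genipin and LPS range from -1.29 for Plin4 in liver to 0.61 for Plin4 in brain.

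Ddit4 (chromosome 10, 59949675 to 59951770), also called REDD1, is induced by glucocorticoids, hypoxia and other stresses and restrains the growth kinase complex mTORC1. It rose with LPS in every organ. In brain its intensities were 8030, 7929 and 8373 in mock, 13805, 15760 and 14388 with LPS, and 14469, 12826 and 14375 with LPS+genipin. In heart they were 7900, 7511 and 7845, then 16728, 16310 and 15755, then 15581, 15927 and 17756. The treated groups overlapped in both organs. In kidney they were 2526, 2863 and 2889 in mock, 15846, 15846 and 15673 with LPS, and 10997, 9922 and 12594 with LPS+genipin. In liver they were 1038, 1015 and 1018, then 11608, 11925 and 10456, then 6206, 6192 and 6760. In kidney and liver the 3 groups did not overlap, with LPS+genipin between the other two.

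The LPS rise of Ddit4 was 11.1-fold in liver (3.47 ± 0.06, adjusted p = 4.82e-09), 5.73-fold in kidney (2.52 ± 0.09, adjusted p = 1.57e-07), 2.10-fold in heart (1.07 ± 0.06, adjusted p = 4.69e-06) and 1.80-fold in brain (0.85 ± 0.07, adjusted p = 8.32e-05). Genipin lowered it 1.77-fold in liver (-0.83 ± 0.06, adjusted p = 2.56e-05) and 1.42-fold in kidney (-0.51 ± 0.09, adjusted p = 0.0019). It still stood 6.24-fold and 4.04-fold above mock there. Differences between LPS+genipin and LPS did not pass in brain (-0.08, 95% interval -0.24 to 0.08) or heart (0.01, -0.14 to 0.16).

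Other genes of growth control and hypoxia did not share one direction. Of 15 readable mTORC1 regulators and hypoxia targets in brain, 4 rose and 2 fell with LPS. In heart 5 of 15 rose and 5 fell, in kidney 5 of 13 rose and 4 fell, and in liver 5 of 14 rose and 7 fell, with medians of 0.09, -0.13, 0.23 and -0.07. Pfkfb3, which encodes a glycolytic regulator, rose by 4.05 in heart, 2.32 in kidney and 3.65 in liver on the log2 scale, and fell with genipin by 1.13, 0.78 and 0.74 against LPS. Txnip, an inhibitor of thioredoxin and of glucose uptake, rose by 1.43 in brain and 1.36 in kidney with LPS. The hypoxia target Ankrd37 fell by 2.05 in heart, and against LPS it was 1.72 higher with genipin. Against LPS, genipin raised 4 and lowered 3 of the 15 in brain, raised 2 and lowered 4 in heart, raised 4 and lowered 5 in kidney, and raised 4 and lowered 3 in liver. Over all genes of these organs, 34.6%, 48.0%, 65.7% and 67.7% passed in either direction with LPS. With genipin against LPS the shares were 30.7%, 42.6%, 56.0% and 55.1%.

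Cdkn1a (chromosome 17, 29090979 to 29100722), which encodes the cyclin-dependent kinase inhibitor p21 and is raised by p53, by glucocorticoids and by inflammatory signals, rose with LPS in all 4 organs. In heart its intensities were 7206, 6813 and 6439 in mock, 26579, 26871 and 27866 with LPS, and 16529, 16961 and 15843 with LPS+genipin. In liver they were 1689, 1539 and 1698, then 14796, 14866 and 14398, then 18281, 19218 and 18429. Genipin arrays thus lay between mock and LPS in heart but above LPS in liver, with no overlap. In brain they were 4164, 4423 and 4268 in mock, 14098, 15545 and 14426 with LPS, and 12024, 13186 and 11506 with LPS+genipin. In kidney they were 4547, 4571 and 3866, then 24690, 25057 and 25085, then 20938, 20873 and 19714. In both organs the LPS+genipin arrays lay between the other groups.

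Cdkn1a rose with LPS 8.95-fold in liver (3.16 ± 0.05, adjusted p = 3.15e-09), 5.78-fold in kidney (2.53 ± 0.07, adjusted p = 2.73e-08), 3.98-fold in heart (1.99 ± 0.06, adjusted p = 8.04e-08) and 3.43-fold in brain (1.78 ± 0.06, adjusted p = 1.02e-06). Against LPS, genipin lowered it 1.65-fold in heart (-0.72 ± 0.06, adjusted p = 4.66e-05), 1.22-fold in kidney (-0.28 ± 0.07, adjusted p = 0.00778) and 1.20-fold in brain (-0.26 ± 0.06, adjusted p = 0.018), and raised it 1.27-fold in liver (0.34 ± 0.05, adjusted p = 0.00095). The brain fall was lost without LPS+genipin array 1 or 3 (adjusted p = 0.0574 and 0.0507) and with only the 6 arrays compared (0.0599). A second probe gave LPS rises of 1.98, 1.62 and 3.09 in brain, heart and kidney, and genipin falls of 0.40, 0.81 and 0.27 against LPS. The opposite direction in liver was part of a difference among the 4 tissues that itself passed (F test over 36 arrays, adjusted p = 6.26e-10). Such differences among tissues passed for 77.1% of the 6705 genes measured in all 4 with LPS against mock, 74.5% with LPS+genipin against LPS and 66.2% with LPS+genipin against mock.

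Other p53 targets and arrest genes were split after LPS: 5 of 15 rose and 2 fell in brain, 4 of 12 rose and 5 fell in heart, 9 of 15 rose and 4 fell in kidney, and 6 of 12 rose and 3 fell in liver, with medians of 0.01, 0.02, 0.17 and 0.33. In liver, the antiproliferative Btg2 rose 3.22 on the log2 scale and the growth arrest gene Gadd45b rose 2.98, while Tob1, another antiproliferative gene, fell by 2.09 and Ccng1, cyclin G1, fell by 0.78. With genipin against LPS in liver, 7 of 12 rose, 2 fell and the median was 0.82. Tob1 and Plk2, a stress-induced kinase, were the largest of these rises at 1.60 and 1.58, and Btg2 and Trp53inp1 fell by 0.91 and 0.76. Mdm2, the ubiquitin ligase that p53 induces and that degrades p53, was named after its values were seen. Its liver intensities were 3134, 3004 and 3171 in mock, 5305, 5480 and 4778 with LPS, and 11367, 12015 and 11837 with LPS+genipin, a rise of 1.18 ± 0.06 over LPS (adjusted p = 3.52e-06) with no overlap between groups. In the other organs genipin against LPS raised 4 and lowered 3 of 15 in brain, raised 2 and lowered 3 of 12 in heart, and raised 7 and lowered 4 of 15 in kidney. Over all genes in brain, heart, kidney and liver, 34.6%, 48.0%, 65.7% and 67.7% passed in either direction with LPS. The shares with genipin against LPS were 30.7%, 42.6%, 56.0% and 55.1%.

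**Figure D3:**
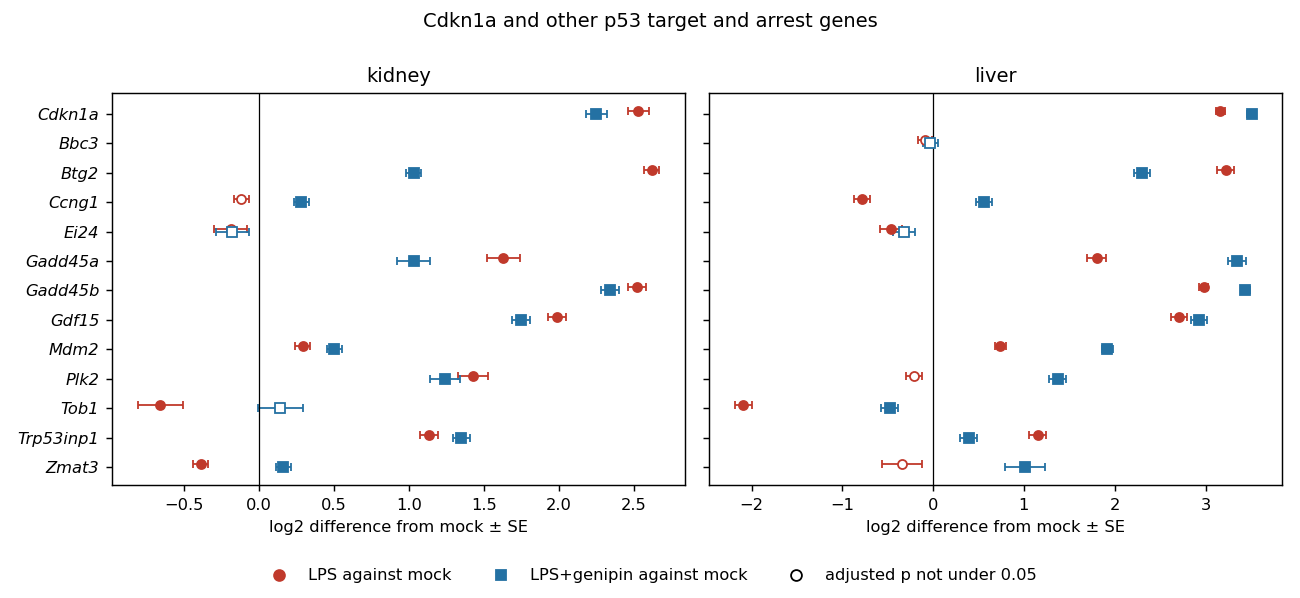
Log2 difference from mock ± SE in kidney and liver of Cdkn1a and the 12 other p53 target and arrest genes measured in liver, with LPS and with LPS+genipin, 3 arrays per group; open symbols did not pass. In liver the LPS+genipin symbol of Cdkn1a, at 3.51, lies right of the LPS symbol at 3.16, and in kidney it lies left of it, at 2.25 against 2.53.

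Plin4 (chromosome 17, 56100587 to 56109948), which encodes a perilipin that coats lipid droplets in fat and muscle, rose with LPS in all 4 organs, and its change with genipin ran in opposite directions in brain and liver. In brain its intensities were 829, 801 and 711 in mock, 3631, 3781 and 3184 with LPS, and 5907, 5188 and 5122 with LPS+genipin. In liver they were 658, 698 and 653, then 1491, 1347 and 1122, then 537, 550 and 517. The LPS+genipin arrays were the highest in brain and the lowest in liver. In heart they were 16019, 17898 and 17798 in mock, 31259, 29440 and 34095 with LPS, and 24790, 24256 and 26378 with LPS+genipin. In kidney they were 1418, 1417 and 1385, then 3011, 2982 and 2809, then 2589, 2764 and 2820. Heart groups did not overlap, and the treated kidney groups did.

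Plin4 rose with LPS 4.53-fold in brain (2.18 ± 0.09, adjusted p = 2.12e-06), 2.09-fold in kidney (1.06 ± 0.05, adjusted p = 4.8e-07), 1.96-fold in liver (0.97 ± 0.10, adjusted p = 5.37e-05) and 1.83-fold in heart (0.87 ± 0.08, adjusted p = 4.14e-05). Genipin raised it a further 1.53-fold in brain (0.61 ± 0.09, adjusted p = 0.00226) and lowered it 2.45-fold in liver (-1.29 ± 0.10, adjusted p = 2.5e-05) and 1.26-fold in heart (-0.33 ± 0.08, adjusted p = 0.00934). In kidney the difference did not pass (-0.11, adjusted p = 0.0762), but it passed without LPS array 3 (adjusted p = 0.0439). In liver with genipin, Plin4 was 1.25-fold below mock (-0.33 ± 0.10, adjusted p = 0.0196), the single fall below mock among these genes, and that call was lost without mock array 2 or LPS+genipin array 3 (adjusted p = 0.064 and 0.0598). The difference among the 4 tissues in the genipin comparison passed (adjusted p = 9.53e-13).

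The adiponectin and adipsin transcripts of fat cells moved with Plin4 in heart, whereas the fat-cell transcript Fabp4 did not pass. Fabp4 differed by 0.40 with LPS against mock (adjusted p = 0.223) and by -0.01 with genipin against LPS (adjusted p = 0.99). Lpl gave no readable difference in heart, where it was at the scanner's limit in every group, so it adds a nearly fixed amount to the sums below. The 4 measured of 6 adipocyte markers summed to 78075 to 83341 in mock, 150727 to 163067 with LPS and 82705 to 90253 with LPS+genipin, and Retn and Lep were not measured. Adiponectin, Adipoq, was 742, 695 and 536 in mock hearts, 20342, 20849 and 20146 with LPS, and 665, 666 and 657 with LPS+genipin, and adipsin, Cfd, was 1071, 1074 and 1150, then 51920, 58790 and 51245, then 1007, 1017 and 1118. With LPS+genipin neither passed against mock (0.02 for Adipoq, adjusted p = 0.907, and -0.07 for Cfd, adjusted p = 0.541), and Plin4 was still 1.46-fold above mock (0.55 ± 0.08, adjusted p = 0.00211). In kidney the 4 markers summed to 90311 to 94869, 98245 to 106823 and 120663 to 127091 in mock, LPS and LPS+genipin, highest with LPS+genipin. Kidney Lpl was at the scanner's limit in mock and LPS+genipin and makes up much of each sum. With LPS+genipin against mock in kidney, Adipoq was 0.99 and Cfd 1.08 higher, and Fabp4 did not pass (0.04, adjusted p = 0.855). In brain, where Plin4 rose most with LPS, 1 of the 6 was measured: lipoprotein lipase, Lpl, at 7838 to 8217, 4126 to 4962 and 6233 to 6539. In liver 2 of 6, Fabp4 and Lpl, summed to 3098 to 3590, 6553 to 9573 and 4242 to 5381. The part of fat tissue in the Plin4 differences was not tested.

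**Figure D4:**
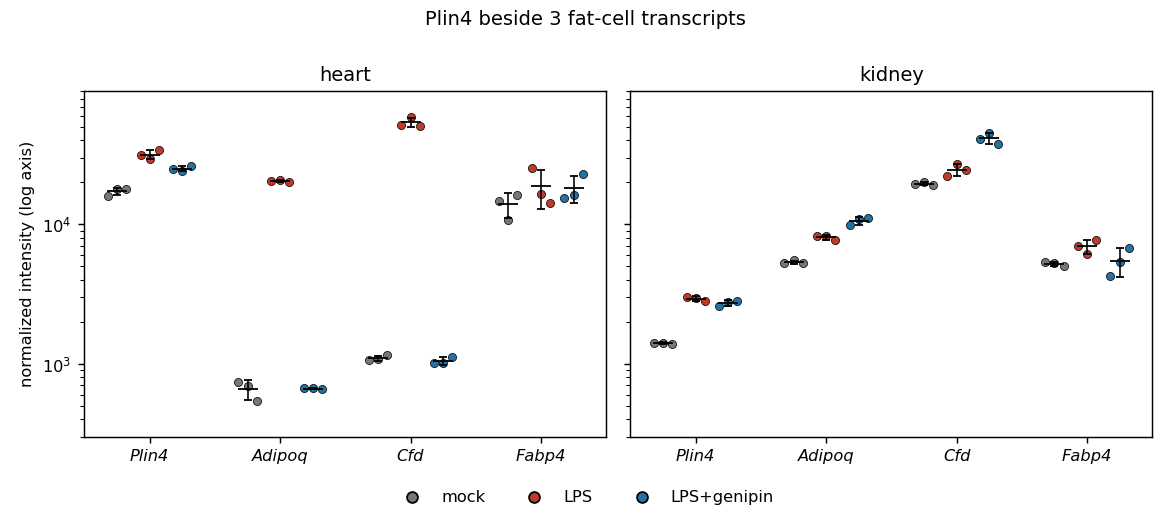
Normalized intensity (log axis) of Plin4 and 3 fat-cell transcripts in heart and kidney, by group; points are arrays and bars are mean ± SD of 3 arrays. In heart, LPS arrays stand apart for Adipoq, at 20146 to 20849, and Cfd, at 51245 to 58790, while LPS+genipin arrays of both lie with mock and those of Plin4, 24256 to 26378, lie above mock.

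Other perilipins and lipid droplet genes were split in direction. With LPS, 1 of 9 rose and 1 fell in brain, 2 of 10 rose and 5 fell in heart, 3 of 10 rose and 3 fell in kidney, and 2 of 9 rose and 6 fell in liver, with medians of 0.08, -0.09, -0.06 and -0.47. Plin2, the perilipin of most non-fat cells, rose 2.08 in kidney on the log2 scale and fell with genipin by 1.22 against LPS. Plin5, the perilipin of oxidative tissues, fell by 0.50 in heart with LPS and rose 0.97 with genipin. Cidea rose 1.49 in heart with LPS and fell by 1.57 with genipin against LPS, while in kidney it fell by 0.86 and rose 0.98. Against LPS, genipin raised 1 and lowered 0 of 9 in brain, raised 4 and lowered 1 of 10 in heart, raised 5 and lowered 3 of 10 in kidney, and raised 2 and lowered 3 of 8 in liver. Over all genes of these organs, 34.6%, 48.0%, 65.7% and 67.7% passed in either direction with LPS. The shares with genipin against LPS were 30.7%, 42.6%, 56.0% and 55.1%.

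The metallothioneins could be read in 1 setting only. Mt1 (chromosome 8, 94178883 to 94180327) was at the scanner's limit on all arrays of all tissues, mock included. Mt2 (chromosome 8, 94172618 to 94173567) was at or above 60000 everywhere but in mock hearts, where it read 30702, 33195 and 32066. In kidney it read 60815 to 64925 in mock and 61227 to 65068 with LPS, close to the top of the scale rather than fixed at it. In heart it read 65483, 65481 and 65041 with LPS and 65481, 65468 and 65481 with LPS+genipin, so it was at least 2.04-fold higher with LPS (adjusted p = 1.1e-06) and at least 2.05-fold higher with LPS+genipin (adjusted p = 5.44e-06). Whether genipin changed either gene could not be read in any tissue.

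Of the other metal-handling genes, 4 of 14 rose and 5 fell with LPS in brain, 11 of 16 rose and 1 fell in heart, 9 of 15 rose and 3 fell in kidney, and 13 of 18 rose and 3 fell in liver, with medians of -0.04, 0.64, 0.34 and 0.65. Against LPS, genipin raised 4 and lowered 3 of 14 in brain, raised 0 and lowered 9 of 16 in heart, raised 2 and lowered 7 of 14 in kidney, and raised 4 and lowered 5 of 18 in liver. Of all genes of these organs, 16.7%, 18.5%, 25.8% and 29.8% rose with LPS and 17.9%, 29.5%, 40.0% and 37.8% fell. With genipin against LPS, 16.7%, 22.4%, 32.9% and 30.2% rose and 14.1%, 20.2%, 23.0% and 24.9% fell. Mt4, a metallothionein known mainly from stratified epithelium, rose with LPS by 4.11 in heart, 3.16 in kidney, 2.32 in liver and 1.59 in brain on the log2 scale, and fell with genipin against LPS by 1.59, 1.87, 1.03 and 0.58. Its heart intensities were 1883, 1531 and 1607 in mock, 29205, 29083 and 27984 with LPS, and 8612, 8632 and 11817 with LPS+genipin. The 3 groups did not overlap there, nor in kidney, at 3210, 2378 and 3066, then 29157, 24120 and 23721, then 6878, 6993 and 7175. Metallothionein transcripts are alike in sequence and probe sequences were not used here, so which transcripts the Mt4 values reflect is uncertain.

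The zinc importer Slc39a14, an acute-phase gene of the liver, rose with LPS by 0.82 in heart, 1.12 in kidney and 1.36 in liver, and fell with genipin by 0.46, 0.82 and 0.60. Its liver intensities were 775, 754 and 775 in mock, 2095, 1925 and 1903 with LPS, and 1233, 1326 and 1344 with LPS+genipin. Ferroportin, Slc40a1, the cellular iron exporter, went the other way in liver, at 43543, 42269 and 44574 in mock, 4809, 5617 and 4613 with LPS, and 32119, 32358 and 32651 with LPS+genipin. That is a fall by 3.12 with LPS and a rise of 2.70 with genipin. The zinc exporter Slc30a1, itself an MTF1 target, fell by 1.07 in liver with LPS and rose 1.55 with genipin. Heme oxygenase, Hmox1, rose 1.14 with LPS in liver and a further 1.95 with genipin, from 10271, 9501 and 9492 to 37966, 37867 and 37312.

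Other genes known to be induced by glucocorticoids mostly rose with LPS as well. Of 23 readable in brain 17 rose and 1 fell, of 23 in heart 17 rose and 1 fell, of 25 in kidney 20 rose and 2 fell, and of 24 in liver 16 rose and 3 fell. The medians were 0.74, 0.88, 1.13 and 0.88. Of all genes of these organs, 16.7%, 18.5%, 25.8% and 29.8% rose and 17.9%, 29.5%, 40.0% and 37.8% fell. Several of these genes are also direct targets of inflammatory signalling: the iron-siderophore binder Lcn2 rose 7.53 in brain on the log2 scale, and Zfp36, which destabilizes cytokine messages, rose 2.53 there. The metabolic targets moved as well, with Pdk4, a kinase that shuts off pyruvate oxidation, up 3.47 in kidney and 2.82 in liver. Klf15, a metabolic factor and direct receptor target, fell by 0.68 in kidney and 0.80 in liver. In heart Pck1, the gluconeogenic enzyme that fat cells also express, rose 4.74 with LPS and fell by 5.36 with genipin, from 26973, 19153 and 22996 to 561, 630 and 486, on the same arrays as Adipoq and Cfd.

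Unlike in the comparison with mock, genipin against LPS lowered more of this list than it raised in each organ. In brain 3 of 23 rose and 12 fell, in heart 5 of 23 rose and 11 fell, in kidney 5 of 25 rose and 13 fell, and in liver 3 of 23 rose and 8 fell, with medians of -0.31, -0.27, -0.24 and -0.16 against 0.016, 0.032, 0.051 and 0.043 for all genes. Of all genes, 16.7%, 22.4%, 32.9% and 30.2% rose and 14.1%, 20.2%, 23.0% and 24.9% fell. Fbxo32, a ubiquitin ligase of muscle wasting, fell by 2.32 in liver, 1.36 in kidney and 0.89 in brain. Its kidney LPS arrays were widely spread, at 883, 1561 and 3228. Klf9, a direct receptor target, rose 0.57 in liver, and Klf15 rose 0.61 in kidney. Against mock, LPS+genipin left 14 of 23 higher and 1 lower in brain, 11 of 23 and 2 in heart, 15 of 24 and 1 in kidney, and 14 of 23 and 5 in liver. The shares of all genes there were 9.13%, 7.73%, 20.7% and 29.0% higher and 5.72%, 12.5%, 24.9% and 33.0% lower. Neutrophil markers were read on the same arrays. Their sums in liver were 4112 to 4374 in mock, 87965 to 92270 with LPS and 61776 to 66492 with LPS+genipin, and in heart 3515 to 4100, 45052 to 49010 and 18983 to 20181. In kidney they were 780 to 918, 6211 to 8110 and 5923 to 6167, and in brain 2645 to 2702, 4285 to 5071 and 5014 to 5127. The sums with LPS+genipin lay below those with LPS in all organs but brain, where the ranges overlapped, and in kidney the gap was small. Neither marker measured in kidney passed against LPS (S100a9 -0.31, adjusted p = 0.145, and Retnlg -0.15, adjusted p = 0.306). The sums also hide differences among markers. Heart falls with genipin ran from 0.71 for S100a8 to 4.04 for Ltf. With LPS in brain, S100a8 and S100a9 rose 1.42 and 1.27 while Csf3r fell by 0.62. Of the 8 markers, 3 were measured in liver, 4 in heart, 2 in kidney and 6 in brain, and Mmp8 and Cxcr2 in none. Their part in the list's differences was not tested.

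**Figure D5:**
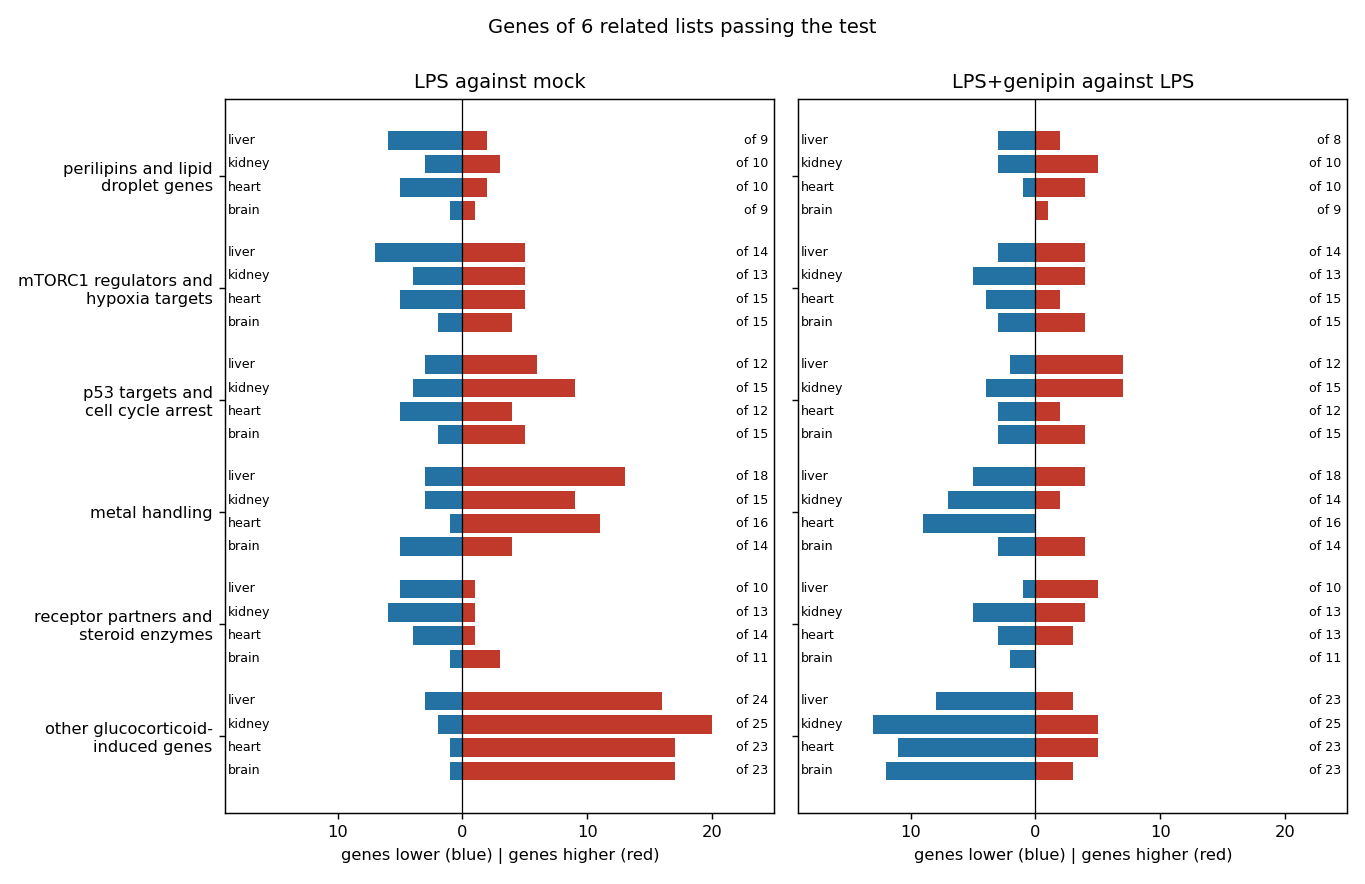
Number of genes of 6 related lists that were higher (red, right) or lower (blue, left) in each tissue, for LPS against mock and LPS+genipin against LPS; the number at the right edge is the readable genes. The other glucocorticoid-induced genes show long red bars with LPS, 16 to 20 genes, and longer blue than red bars with genipin, 8 to 13 genes against 3 to 5.

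Of the partners of the receptor and enzymes of steroid handling, 3 of 11 rose with LPS and 1 fell in brain, 1 of 14 rose and 4 fell in heart, 1 of 13 rose and 6 fell in kidney, and 1 of 10 rose and 5 fell in liver, with medians of -0.06, -0.04, -0.23 and -0.27. Of all genes, 16.7%, 18.5%, 25.8% and 29.8% rose and 17.9%, 29.5%, 40.0% and 37.8% fell, so with lists this short the falls in heart and kidney lie near the share of all genes. Fkbp4, the co-chaperone that counters Fkbp5 at the receptor, fell by 1.05 in liver, 0.58 in heart, 0.45 in kidney and 0.36 in brain. Hsd11b2, which inactivates corticosterone in the kidney, fell there by 0.88 and rose 0.44 with genipin, and Hsd11b1, which regenerates corticosterone, fell there by 0.60 and rose 0.79. Genipin against LPS raised 0 and lowered 2 of 11 in brain, raised 3 and lowered 3 of 13 in heart, raised 4 and lowered 5 of 13 in kidney, and raised 5 and lowered 1 of 10 in liver. Of all genes in that comparison, 16.7%, 22.4%, 32.9% and 30.2% rose and 14.1%, 20.2%, 23.0% and 24.9% fell. No result about the list is drawn from counts this small. In liver Hsp90ab1, a chaperone of the receptor, fell by 0.64 with LPS and rose 0.75 with genipin.

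The genes whose values most resembled each member's were sought among 6432 genes by Pearson's r over 36 arrays, each tissue's mean removed. The r values describe arrays that share tissues and treatments. Fkbp5 was most like Depp1 (0.884), a forkhead target, and Trp53inp1 (0.87). Sgk1 was most like the kinase gene Riok3 (0.836) and the triglyceride lipase gene Pnpla2 (0.835). Ddit4 was most like Plek and Tnip1 (0.953 each), which encode the leukocyte protein pleckstrin and an inhibitor of NF-kB signalling. Plin4 was most like the Fc receptor gene Fcgr3 (0.858) and Lhb (0.847). Cdkn1a was most like the TNF receptor gene Tnfrsf1a (0.957) and Litaf (0.954), and unlike Cdkn1a in liver, Litaf fell by 0.49 there with genipin against LPS. Mt1 and Mt2, at the limit, gave no such value, and neither did Tsc22d3, measured in 1 tissue.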

How the data were processed

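The deposited table holds 1 column per array of intensity values, on the linear scale as their range of 9.46 to 65491.9 shows. No label states how the authors normalized them, and the tool named in the submitters' processing notes is limma. Median intensity differed by tissue, from 1253 in liver to 2097 in brain, and no probe was missing on only part of a tissue's arrays. Normalization within a tissue is an inference from these values. How background was corrected or probes were filtered is not stated there. Of 18183 probes, 14817 carried 1 symbol and 3366 none. Symbols were updated through a reference gene table (GRCm38.p6): 12468 were current, 2318 synonyms and 31 kept as given. Genes measured ranged from 8479 in liver to 10148 in brain.

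Values below 263, the 5th percentile, were set to 263 before taking log2. A group wholly at the floor or at or above 60000 gave a bound, and 2 groups at the same limit gave no value. Group means were fitted per tissue over 9 arrays (limma 3.58.1, R 4.3.3). All p-values are two-sided with Benjamini-Hochberg adjustment, threshold 0.05. An F test over 36 arrays compared tissues. The fit was tested on simulated data. Tables and figures were made in Python 3.11.15 with matplotlib 3.10.9, numpy 2.4.6 and pandas 2.3.3. For each gene the probe with the highest mean was used. The rule for named genes was every member, and in other lists the 2 largest rises and falls per tissue and comparison. Not all of those are named above and some smaller changes are, so the named genes are a selection. Members and lists were chosen with earlier results of these data known. Alternatives were another floor, scaling, probe choice, filter, fit and leaving out each array. The number of arrays limits the precision.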

Additional observations from a re-analysis of the deposited data

Results flagged for a closer look

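The size of the response differed among the 4 tissues in an F test over all 36 arrays, with p-values adjusted over 6705 genes. For LPS against mock the adjusted p was 6.4e-19 for Ddit4, whose rise ran from 0.85 in brain to 3.47 in liver on the log2 scale, 1.52e-13 for Cdkn1a (1.78 in brain to 3.16 in liver), 1.09e-10 for Plin4 (0.87 in heart to 2.18 in brain), 0.000553 for Fkbp5 (0.60 in liver to 1.32 in brain) and 0.0307 for Sgk1 (0.27 in kidney to 0.72 in brain). Such differences passed for 77.1% of all genes tested, so they are the common case.

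For LPS+genipin against LPS the adjusted p was 9.53e-13 for Plin4 (-1.29 in liver to 0.61 in brain), 6.26e-10 for Cdkn1a (-0.72 in heart to 0.34 in liver), 1.46e-07 for Ddit4 (-0.83 in liver to 0.01 in heart) and 0.0236 for Fkbp5 (-0.28 in liver to 0.18 in brain). Sgk1 did not pass (adjusted p = 0.407). For LPS+genipin against mock it was 4.35e-18 for Plin4, 3.31e-18 for Cdkn1a, 7.1e-15 for Ddit4, 3.17e-07 for Fkbp5 and 0.00859 for Sgk1.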

How the results depend on the processing

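Of 1243 recomputed values of single genes, 1205 kept their direction and their side of the threshold, 24 lost and 10 gained a call, and 4 changed sign. The sign changes were of values that never passed: Ddit4 in heart, genipin against LPS, was -0.01 without LPS array 3 and -0.05 without LPS+genipin array 3, with a range of -0.05 to 0.05 over the arrays left out, and Fkbp5 in kidney was -0.03 without LPS array 2 and -0.01 without LPS+genipin array 3, with a range of -0.03 to 0.11. The members called in brain, genipin against LPS, numbered 2, but 1 with only the 6 arrays compared and 1 to 2 with each array left out. Of the genes with more than 1 probe, the dimmer probe, an alternative chosen after the data were seen, lost the Sgk1 calls in brain and heart.

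The counts over all genes moved more. In brain, genes called with LPS against mock numbered 3442, but 2274 with all 36 arrays fitted together and 2250 to 3686 with each array left out. With LPS+genipin against LPS they were 3063, but 1894 with only 6 arrays and 1940 with all 36. With LPS+genipin against mock they were 1472, but 926 without dim genes, 2250 with 6 arrays, 963 with all 36 and 846 to 1810 with each array left out. In heart this last comparison gave 1903, and 1199 to 2342 with each array left out. In kidney the fit of all 36 arrays gave 3853, 3151 and 2293 against 6118, 5206 and 4229. That fit tests only the 6705 genes measured in all tissues.

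Deviations from group means were correlated between arrays of different groups of a tissue. Same-numbered arrays had a median r of 0.144 in brain, 0.0287 in kidney, -0.0454 in liver and -0.0709 in heart. Differently numbered ones had 0.000317, -0.0134, 0.0259 and 0.0363. The same-numbered medians were thus higher in brain and kidney and lower in liver and heart. Of the 9 arrays, 2 in brain, 2 in kidney and 0 in either other organ correlated best with their own number. Across tissues, same-numbered arrays of 1 treatment had a median of 0.116 (54 pairs, -0.258 to 0.63) and differently numbered ones -0.0699 (108 pairs), and no label says that a number marks a mouse. With that number as a block over tissues, the 5 genes kept their side of the threshold in the F test in all 3 comparisons. With the replicate number as a block within a tissue, the genes called in brain with LPS against mock were 3409, and no count of members called changed. The scanner's limit hides any change of Mt1, and of Mt2 outside heart.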
